A study of Homo sapiens with 4 samples.

Results

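The genes described here are 48 genes of mitosis, the spindle and the kinetochore, taken from a list of symbols. They were measured in the human colon cancer line HCT116, a long-established cell line. Each gene was read from probe sets that the platform annotation assigns to that gene alone, and of several such probe sets the brightest over the arrays was used. All 48 genes had such a probe set, of 19777 genes on the array, and 47 of the 12636 genes that passed a floor on signal were among them. Both groups of cells had first been kept without serum for 24 h. The hypoxia group was then held at 1% oxygen for 72 h and the normoxia group at 21% oxygen for 72 h. The comparison is thus between oxygen levels in cells that had first been starved of serum. Whether serum was also absent during the 72 h is not given here. Each group held 2 arrays, which the labels name exp A and exp B, and the number of arrays limits the precision. The labels do not spell out what exp stands for, or if arrays A and B came from different cultures. The p-values therefore reflect the spread of these samples alone, and that spread may be technical.

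Mitosis is driven by the kinase CDK1 with its cyclins, which starts chromosome condensation and the building of the spindle. Kinetochores, protein assemblies on the centromeres, then bind spindle microtubules, and unattached kinetochores signal through the spindle checkpoint to hold back the anaphase-promoting complex (APC/C), a ubiquitin ligase. Many of these genes are transcribed mainly in the G2 and M phases of the cell cycle, and their summed RNA is widely used as a sign of proliferation. In RNA from whole cultures, fewer cells in these phases and less RNA per cell cannot be told apart.

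Of the 47 tested genes, 38 were called lower in hypoxia and 9 were not called. A call is an adjusted p under 0.05 in limma over all genes, with Benjamini-Hochberg adjustment. None was called higher by limma, nor higher at an unadjusted p under 0.05. Over all 12636 genes tested, 22.8% were called lower and 15.3% higher, together 38.0%. The median log2 difference, hypoxia minus normoxia, was -1.50 over the 47 genes, against -0.03 over all genes tested, where the quartiles were -0.79 and 0.68. Differences are of log2(signal + 23.7), a scale that shrinks the change of dim genes. They ran from -2.92 for NCAPH, whose hypoxia signals were dim, to 0.19 for ANLN, and 46 of 47 were below 0. Called lower by at least 2-fold were 35 of the genes, against 16.2% of all genes tested, and by at least 4-fold 9 of them, against 4.92%. In 44 of the 47 genes both hypoxia arrays lay below both normoxia arrays, against 37.9% of all genes tested, and in ANLN both lay above. The median over the genes of the hypoxia mean was 33.6% of the normoxia mean.

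The arrays themselves showed the same shift. The median signal of the 47 genes was 556 and 600 on hypoxia arrays A and B, against 1613 and 1680 on normoxia arrays A and B. Both hypoxia medians lay well below both normoxia medians. The median over all genes of an array, on the log2 scale, was 9.24 on each hypoxia array, against 9.53 and 9.51 on the normoxia arrays. Set against the array of the same letter, 45 of the genes were lower in hypoxia for A and for B alike. Leaving out 1 array at a time left 39 genes called lower without hypoxia A, 42 without hypoxia B, 29 without normoxia A and 25 without normoxia B. The share of all genes called lower was then 29.7%, 29.0%, 10.8% and 11.3% in the same order, and 23 of the 38 genes kept their call in each of these fits. With 1 array of a group left out, the remaining array is assumed to vary like the other group. The groups did not vary alike, as the median SD of log2 signal over the 47 genes was 0.30 in hypoxia, against 0.08 in normoxia. Over all genes tested it was 0.27, against 0.15. A fit without a hypoxia array therefore takes its spread from the closer normoxia arrays.

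**Figure D1:**
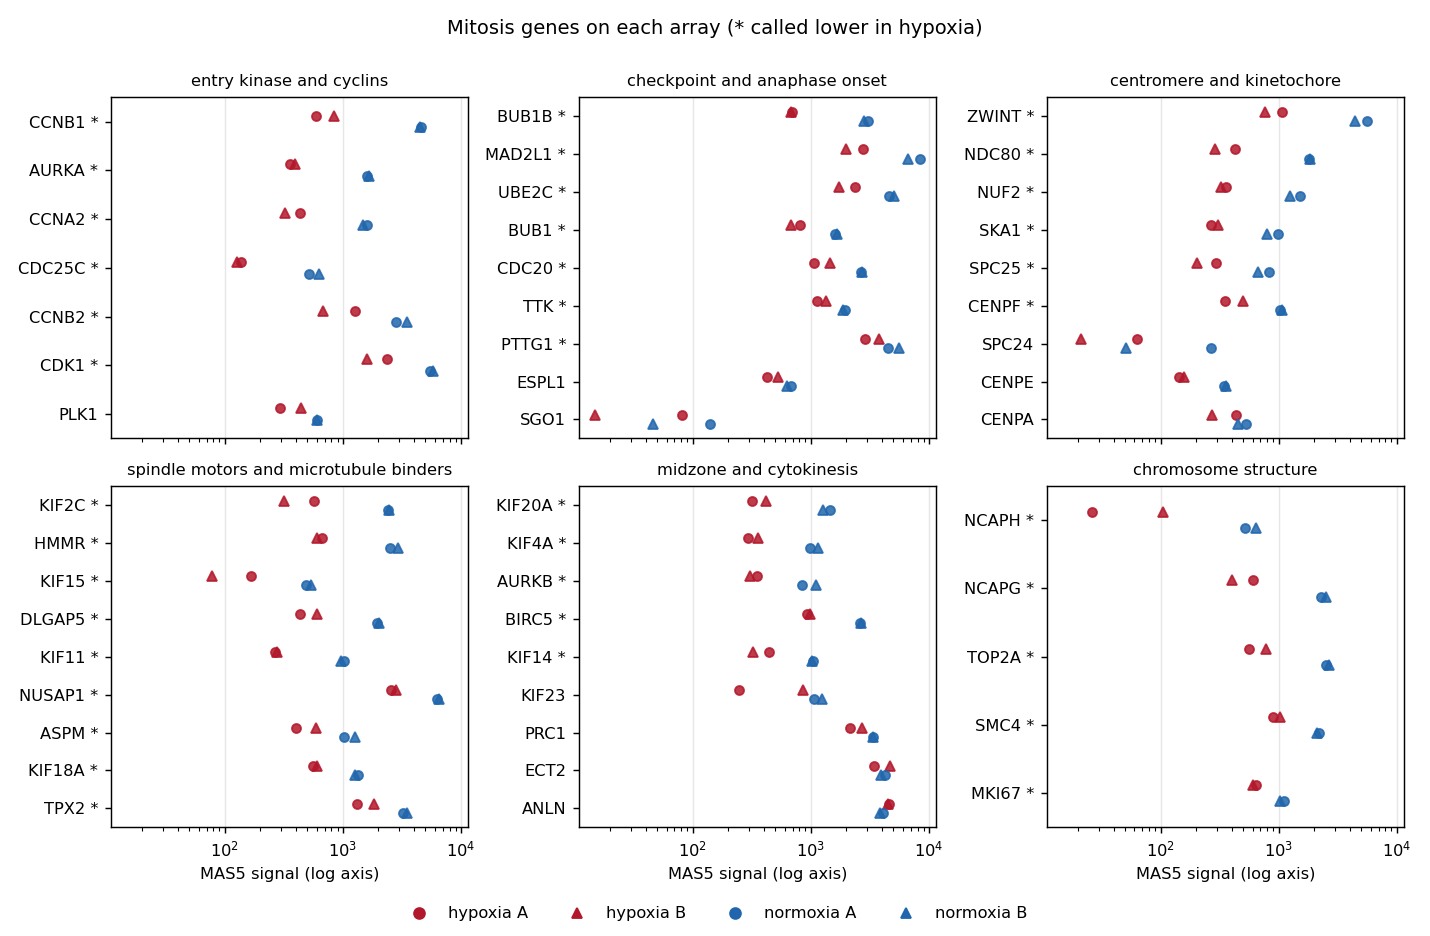
MAS5 signal (horizontal, log axis) of each of the 48 genes on each of the 4 arrays, grouped by role, with hypoxia in red and normoxia in blue, array A as circles and B as triangles. An asterisk marks the 38 genes called lower in hypoxia, and overlap or a higher hypoxia level is seen in ECT2, ANLN and the dim genes SPC24 and SGO1.

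The labels and the cell type were checked on the same arrays. All 7 tested targets of hypoxia-inducible factors were higher in hypoxia, from a log2 difference of 2.08 for the glucose transporter gene SLC2A1 to 6.11 for ANGPTL4. The epithelial genes EPCAM, CDH1, KRT8, KRT18 and KRT19 had signals from 4913 to 36348 over the 4 arrays. Of 5 markers of other cell types, PTPRC, COL3A1 and VWF were under the signal floor, PECAM1 was not called, and the collagen gene COL1A1 was called higher in hypoxia, at 1752 and 2162, against 545 and 595 in normoxia. The 5 summed to 2200 and 2678 on the hypoxia arrays, against 653 and 903 on the normoxia arrays. The ratio of the 3′ to the 5′ actin probe set, a sign of RNA integrity, was 1.66 and 1.77 on the hypoxia arrays, against 1.26 and 1.28 on the normoxia arrays. The same ratio for GAPDH was 0.912 and 0.955 on the hypoxia arrays, against 0.918 and 0.996 on the normoxia arrays. Probe sets for genes of Bacillus, which human RNA should not hold, are given as a level for comparison. It is not stated if RNA of these genes was added, in which case they would not measure background. They reached 305 and 226 on the hypoxia arrays, against 45.7 and 121 on the normoxia arrays, and 11 of the mitosis genes lay under that level on hypoxia A and 6 on hypoxia B. The bioB probe sets, which read a control RNA of hybridization, averaged 2399 and 2137 on the hypoxia arrays, against 579 and 1115 on the normoxia arrays. The part of these differences between arrays in the results was not tested.

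Promoters of these genes are known for short elements to which cell-cycle factors bind, so the windows from 250 bases before to 50 after the start of the gene (RefSeq, GRCh38.p14) were searched for 3 motifs on both strands. These were the cell cycle genes homology region (CHR, TTTGAA or TTCGAA), the CCAAT box bound by NF-Y (CCAAT), and an E2F-type site (TTCCCGC or TTGGCGC or TTCGCGC or TTGCCGC). Of the 48 genes, 43 were matched to a window. Where a gene had several windows the first listed was used, so the further windows of 7 of the 43 genes were not searched. A CHR match was found in 33 of 43 windows (76.7%), against 16.6% of all 27305 promoter windows and 11.3% of the 10214 windows of tested genes. A CCAAT match was found in 32 (74.4%), against 35.7% of all windows and 36.9% of those of tested genes. An E2F-type match was found in 17 (39.5%), against 13.1% of all windows and 20.1% of those of tested genes. A CHR match and a CCAAT match stood together in 25 of 43 windows (58.1%), against 6.58% of all windows and 4.86% of those of tested genes. A CHR match overlapped a CCAAT match in 1 window and an E2F-type match in none, and a CCAAT match overlapped an E2F-type match in 1. The windows below belong to the 6 genes called lower with the largest decreases among those with both motifs. They are shown to let the spacing of the elements be read, from 250 bases before the start to 30 after it, 5′ to 3′ along the gene, with CHR and CCAAT matches on either strand in capitals.
ZWINT, chr10:56361230-56361509, minus strand: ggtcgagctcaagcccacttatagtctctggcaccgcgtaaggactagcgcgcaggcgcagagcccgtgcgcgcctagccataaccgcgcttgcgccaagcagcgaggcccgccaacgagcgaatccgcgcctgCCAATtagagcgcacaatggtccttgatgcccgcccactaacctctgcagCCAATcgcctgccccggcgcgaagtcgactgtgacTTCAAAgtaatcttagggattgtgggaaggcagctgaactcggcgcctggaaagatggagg
HMMR, chr5:163460382-163460661, plus strand: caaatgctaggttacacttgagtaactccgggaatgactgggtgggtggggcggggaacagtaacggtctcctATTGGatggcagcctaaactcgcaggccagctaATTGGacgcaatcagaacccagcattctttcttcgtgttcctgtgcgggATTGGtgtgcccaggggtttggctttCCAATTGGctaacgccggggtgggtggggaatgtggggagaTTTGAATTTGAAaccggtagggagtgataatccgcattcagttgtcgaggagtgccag
TOP2A, chr17:40417867-40418146, minus strand: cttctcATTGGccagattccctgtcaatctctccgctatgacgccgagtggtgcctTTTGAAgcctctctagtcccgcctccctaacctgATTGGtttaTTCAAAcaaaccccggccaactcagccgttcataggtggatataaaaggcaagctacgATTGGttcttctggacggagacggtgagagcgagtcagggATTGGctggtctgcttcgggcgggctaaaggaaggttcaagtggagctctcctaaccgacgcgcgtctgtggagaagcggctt
DLGAP5, chr14:55191556-55191835, minus strand: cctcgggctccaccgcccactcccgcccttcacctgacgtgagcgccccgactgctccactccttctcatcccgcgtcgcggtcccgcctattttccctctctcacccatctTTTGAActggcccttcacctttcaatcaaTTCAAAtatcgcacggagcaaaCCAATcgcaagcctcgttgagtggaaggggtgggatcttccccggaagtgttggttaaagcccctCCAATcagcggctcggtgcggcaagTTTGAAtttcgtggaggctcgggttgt
KIF11, chr10:92592880-92593159, plus strand: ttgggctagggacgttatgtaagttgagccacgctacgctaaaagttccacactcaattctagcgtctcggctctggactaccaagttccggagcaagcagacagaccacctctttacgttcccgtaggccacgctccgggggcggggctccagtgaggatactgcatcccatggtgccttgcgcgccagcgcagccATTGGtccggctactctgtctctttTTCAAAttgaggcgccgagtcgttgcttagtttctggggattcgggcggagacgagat
CCNB2, chr15:59104896-59105175, plus strand: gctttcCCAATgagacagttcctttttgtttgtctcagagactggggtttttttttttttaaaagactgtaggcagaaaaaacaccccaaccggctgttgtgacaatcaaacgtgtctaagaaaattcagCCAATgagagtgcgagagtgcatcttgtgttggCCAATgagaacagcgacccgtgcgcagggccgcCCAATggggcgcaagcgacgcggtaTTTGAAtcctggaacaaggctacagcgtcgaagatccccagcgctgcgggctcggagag

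Positions count from the start of the gene, with bases before it negative. In ZWINT, HMMR, KIF11 and CCNB2 the CHR letters lie between -31 and -17, with a CCAAT box upstream of them. HMMR holds 2 CHR matches end to end, and its CCAAT at -69 overlaps the same motif read on the other strand. TOP2A differs, with CHR letters at -194 and -151 and 4 CCAAT boxes. DLGAP5 holds 3 CHR matches, the last of them after the start. Over all 43 windows, CHR matches began most often in the bin from 50 to 25 bases before the start, in 25.6% of the windows, against 0.959% of the windows of tested genes. CCAAT matches began most often from 75 to 50 bases before the start, in 48.8%, against 10.3%. A match is a run of letters and not a measured binding site.

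**Figure D2:**
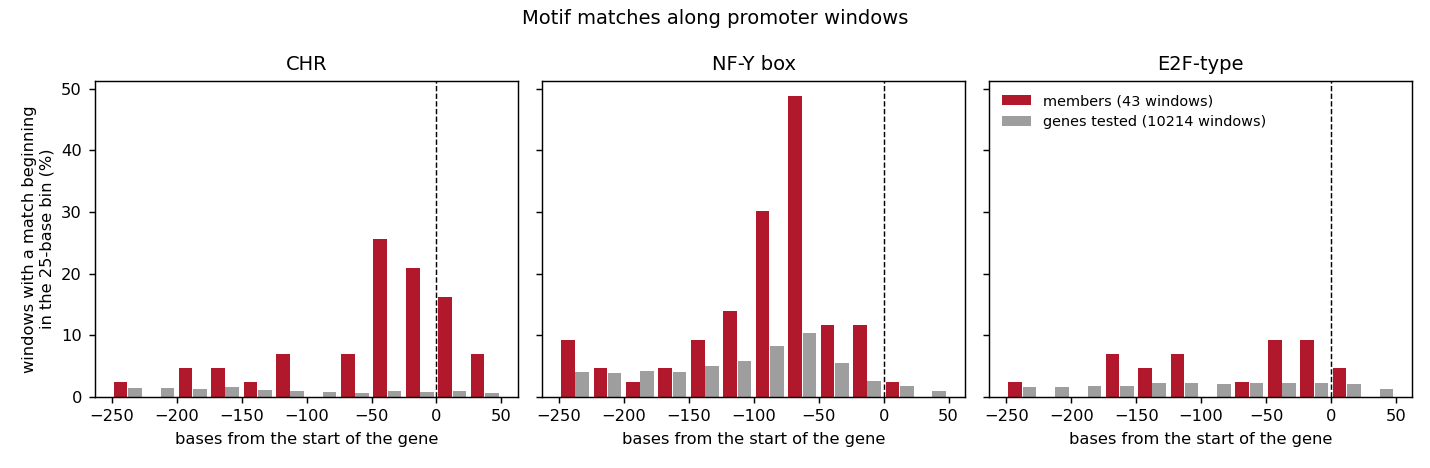
Share of promoter windows (vertical, %) with a CHR, CCAAT (NF-Y box) or E2F-type match that begins in each bin of 25 bases, against the distance from the start of the gene in bases (horizontal), for the 43 mitosis gene windows in red and 10214 windows of tested genes in grey. The red bars for CHR are highest from 50 to 25 bases before the start, at 25.6%. Those for CCAAT are highest in the next bin upstream, at 48.8%.

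Both elements were present in 18 of 33 windows of genes called lower (54.5%) and in 6 of 9 windows of genes not called (66.7%). CCNB1, with the second largest decrease, holds 2 CCAAT matches and no CHR letters in its window, and NCAPH holds a CCAAT match alone. Over all genes called lower, 13.4% of windows held a CHR match, against 11.3% of all tested genes. The 2458 windows of genes called lower include the 33 of this list, of which 25 held a CHR match.

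The kinase and cyclins of mitotic entry had a median difference of -1.94, with 6 of 7 genes called lower. CCNB1 (GRCh38.p14 chr5:69167150-69178245) encodes cyclin B1, the partner of CDK1 at mitotic entry, and had signals of 593 and 835 in hypoxia, against 4614 and 4473 in normoxia. Its hypoxia mean was 15.7% of the normoxia mean, with no overlap, and the log2 difference was -2.65 ± 0.21 (SE; limma adjusted p = 6.97e-05). AURKA, a kinase that matures centrosomes and builds the spindle, had 355 and 394 in hypoxia, against 1583 and 1667 in normoxia (-2.05 ± 0.23; limma adjusted p = 0.000278). CCNA2, the cyclin that acts from S phase into early mitosis, had 436 and 320 in hypoxia, against 1613 and 1490 in normoxia (-1.99 ± 0.25; limma adjusted p = 0.000465). In all 3 genes the arrays of a group lay much closer to each other than to the other group. CDC25C, the phosphatase that activates CDK1, and CCNB2, the other B-type mitotic cyclin, differed by -1.94 and -1.73. CDK1 itself had 2347 and 1604 in hypoxia, against 5434 and 5838 in normoxia, a log2 difference of -1.53. The call of CDC25C was lost without normoxia B (limma adjusted p = 0.0843), and its hypoxia signals of 136 and 126 lay under the highest Bacillus probe set of their arrays.

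PLK1, the kinase that acts with AURKA at entry and in spindle assembly, was the gene of this group that was not called. It had 292 and 439 in hypoxia, against 601 and 609 in normoxia, a log2 difference of -0.72 ± 0.31 with a 95% interval from -1.42 to -0.01 (limma adjusted p = 0.100). Both hypoxia arrays lay below the normoxia arrays, and hypoxia A lay further below than hypoxia B. The hypoxia A signal lay under the highest Bacillus probe set of that array. The difference was -0.44 without hypoxia A (limma adjusted p = 0.142) and -0.99 without hypoxia B, where it passed the threshold (limma adjusted p = 0.00851). Without normoxia A or B the limma adjusted p was 0.367 or 0.364.

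Genes of the spindle checkpoint and anaphase onset had the smallest median difference of the role groups, at -1.10, with 7 of 8 tested genes called lower. BUB1B, which encodes the checkpoint kinase-like protein BubR1, had 688 and 677 in hypoxia, against 3069 and 2820 in normoxia (-2.07 ± 0.19; limma adjusted p = 0.000117). MAD2L1, the checkpoint protein that sequesters CDC20, had 2745 and 1986 in hypoxia, against 8334 and 6599 in normoxia (-1.66 ± 0.21; limma adjusted p = 0.000459). UBE2C, the ubiquitin-conjugating enzyme of the APC/C, had 2379 and 1730 in hypoxia, against 4584 and 5072 in normoxia (-1.24 ± 0.20; limma adjusted p = 0.00143). None of these 3 overlapped between groups, and each kept its call whichever array was left out. The kinase BUB1 differed by -1.11 and the APC/C activator CDC20 by -1.09. The checkpoint kinase TTK and PTTG1, the securin that inhibits separase, had smaller differences of -0.64 and -0.60 (limma adjusted p = 0.0291 and 0.0386).

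Several calls in the checkpoint group were lost with a normoxia array left out, and that of PTTG1 also without hypoxia A. Without normoxia A the limma adjusted p was 0.0561 for BUB1, 0.297 for TTK and 0.0865 for PTTG1. Without normoxia B it was 0.0732 for BUB1, 0.0505 for CDC20, 0.239 for TTK and 0.33 for PTTG1, and without hypoxia A it was 0.0632 for PTTG1. Scaling to the 75th percentile also ended the calls of TTK (limma adjusted p = 0.076) and PTTG1 (limma adjusted p = 0.109). ESPL1, the separase that cleaves cohesin, had 424 and 530 in hypoxia, against 677 and 632 in normoxia, and was not called (-0.45 ± 0.27; limma adjusted p = 0.224). Its groups did not overlap. SGO1, the shugoshin that protects centromeric cohesion, had 81.0 and 14.9 in hypoxia, against 140 and 45.8 in normoxia, was under the signal floor of 97.4 and was not tested. Its groups overlapped.

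At the centromere and kinetochore 6 of 9 genes were called lower, with a median of -1.51. ZWINT (chr10:56357227-56361273), a kinetochore protein needed to recruit checkpoint dynein adaptors, had 1061 and 767 in hypoxia, against 5550 and 4411 in normoxia (-2.42 ± 0.22; limma adjusted p = 0.000111). NDC80 and NUF2 together form the microtubule-binding end of the NDC80 complex. NDC80 had 424 and 286 in hypoxia, against 1786 and 1842 in normoxia (-2.30 ± 0.26; limma adjusted p = 0.000279). NUF2 had 359 and 322 in hypoxia, against 1505 and 1247 in normoxia (-1.94 ± 0.25; limma adjusted p = 0.000512). The hypoxia mean was 18.4%, 19.6% and 24.8% of the normoxia mean for ZWINT, NDC80 and NUF2, with no overlap in any of them. SPC25, from the end of the same complex that faces the centromere and with hypoxia signals under the Bacillus level, differed by -1.51. SKA1, a subunit of the Ska complex that tracks microtubules, differed by -1.54 and CENPF, a large kinetochore-associated protein, by -1.28. The hypoxia A signal of SKA1, at 268, also lay under the Bacillus level.

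The calls of SKA1, SPC25 and CENPF were lost without normoxia A (limma adjusted p = 0.0626, 0.0931 and 0.0569), and that of CENPF also without normoxia B (limma adjusted p = 0.0706). SPC24, the partner of SPC25, had 63.0 and 21.2 in hypoxia, against 268 and 50.4 in normoxia. Its groups overlapped, its 2 normoxia arrays differed by more than its group means, and it was not called (-1.24 ± 1.02; limma adjusted p = 0.369). CENPE, a kinesin that carries chromosomes to the spindle equator, had 143 and 156 in hypoxia, against 342 and 358 in normoxia (-1.11 ± 0.42; limma adjusted p = 0.0664). The CENPE groups were well apart, and it passed the threshold without hypoxia A (limma adjusted p = 0.0396) or without hypoxia B (limma adjusted p = 0.0282), but not without normoxia A (limma adjusted p = 0.323) or B (limma adjusted p = 0.329). Its hypoxia signals lay under the highest Bacillus probe set of their arrays. CENPA, the histone variant that marks the centromere, had 431 and 273 in hypoxia, against 527 and 455 in normoxia, and was not called (-0.49 ± 0.34; limma adjusted p = 0.289). Its hypoxia A array lay close to normoxia B. The difference was -0.79 without hypoxia A (limma adjusted p = 0.0429) and -0.18 without hypoxia B (limma adjusted p = 0.606), and without normoxia A or B the limma adjusted p was 0.681 or 0.477.

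All 9 spindle motors and microtubule binders were called lower, and each by at least 2-fold, with a median of -1.79. KIF2C (chr1:44739837-44767767), a kinesin that depolymerises microtubules at centromeres, had 566 and 317 in hypoxia, against 2399 and 2449 in normoxia (-2.45 ± 0.28; limma adjusted p = 0.000298). HMMR, a microtubule-binding protein of spindle poles, had 666 and 607 in hypoxia, against 2520 and 2919 in normoxia (-2.05 ± 0.20; limma adjusted p = 0.00014). KIF15, a motor that keeps the spindle bipolar alongside KIF11, had 168 and 78.7 in hypoxia, against 488 and 533 in normoxia (-1.93 ± 0.46; limma adjusted p = 0.00963). The groups did not overlap in any of the 3, and KIF15, with hypoxia signals under the highest Bacillus probe set of their arrays, had the widest error. DLGAP5, which stabilises kinetochore fibres, differed by -1.91. KIF11, the motor that pushes spindle poles apart, had 267 and 274 in hypoxia, against 1019 and 966 in normoxia, a difference of -1.79. The hypoxia A signal of KIF11 lay under the highest Bacillus probe set of that array.

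The remaining spindle genes differed by less. NUSAP1, which bundles microtubules near chromosomes, differed by -1.24, ASPM, a spindle pole protein, by -1.18, KIF18A, a motor that limits chromosome movement at the equator, by -1.14, and TPX2, which activates AURKA on microtubules, by -1.09. Without normoxia B the limma adjusted p was 0.0989 for KIF15, 0.136 for ASPM, 0.0639 for KIF18A and 0.0514 for TPX2. Without normoxia A it was 0.0803 for KIF15 and 0.0793 for KIF18A, so 5 of the 9 genes kept their call in each fit that left out an array.

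**Figure D3:**
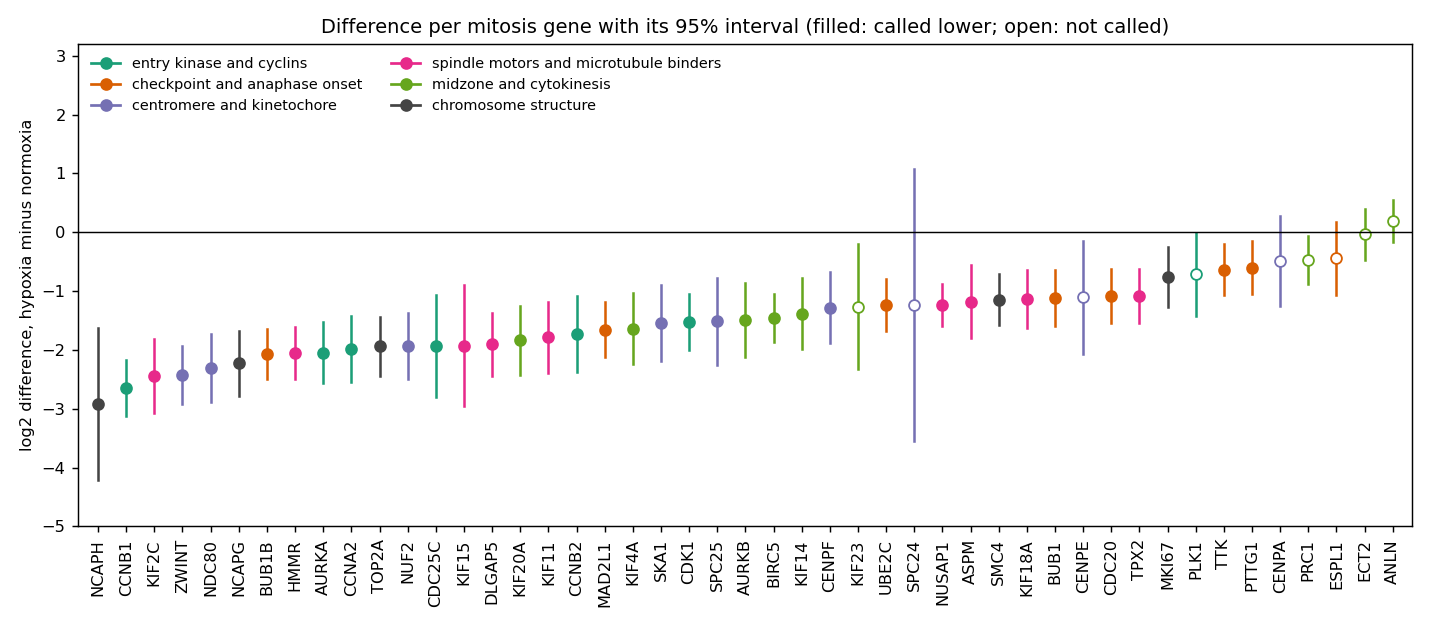
Log2 difference, hypoxia minus normoxia (vertical), of the 47 tested mitosis genes in order of size, with 95% intervals from limma as lines, coloured by role, filled where called lower and open where not called. Filled points run from -2.92 (NCAPH) to -0.60 (PTTG1), and the 4 points nearest to 0 or above it at the right end, PRC1, ESPL1, ECT2 and ANLN, are open.

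Genes of the midzone and cytokinesis were the most mixed, with 5 of 9 called lower and a median of -1.38. KIF20A, a kinesin that moves the chromosomal passenger complex to the midzone, had 316 and 415 in hypoxia, against 1464 and 1258 in normoxia (-1.84 ± 0.26; limma adjusted p = 0.000748). KIF4A, a chromosome-bound kinesin that sets midzone length with PRC1, had 295 and 358 in hypoxia, against 979 and 1160 in normoxia (-1.64 ± 0.27; limma adjusted p = 0.00159). The hypoxia A signal of KIF4A lay under the highest Bacillus probe set of that array. AURKB, the kinase of the chromosomal passenger complex, had 350 and 306 in hypoxia, against 839 and 1112 in normoxia (-1.50 ± 0.28; limma adjusted p = 0.00307). None of the 3 overlapped, and the call of AURKB was lost without normoxia B (limma adjusted p = 0.0752). BIRC5, the survivin subunit of the same complex, differed by -1.45, and KIF14, a midbody kinesin, by -1.38.

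The other 4 genes of cytokinesis were not called. KIF23, a kinesin of centralspindlin, had 247 and 854 in hypoxia, against 1066 and 1240 in normoxia (-1.27 ± 0.47; limma adjusted p = 0.0602). Its hypoxia A signal lay under the highest Bacillus probe set of that array, and the fit without hypoxia B rests on it. The hypoxia arrays differed widely, both lay below normoxia, and the difference was -0.42 without hypoxia A (limma adjusted p = 0.0718) but -2.12 without hypoxia B (limma adjusted p = 1.42e-05). Without normoxia A or B the limma adjusted p was 0.0934 or 0.17. PRC1, which crosslinks the antiparallel microtubules of the midzone, had 2133 and 2730 in hypoxia, against 3341 and 3378 in normoxia (-0.47 ± 0.18; limma adjusted p = 0.0701). Its groups did not overlap, and the difference was -0.30 without hypoxia A (limma adjusted p = 0.0958) and -0.65 without hypoxia B, where it passed the threshold (limma adjusted p = 0.00249). Without normoxia A or B the limma adjusted p was 0.349 or 0.35.

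ECT2 and ANLN, which act on the contractile ring, stood nearest to no difference. ECT2 (chr3:172750726-172829265), the exchange factor that activates RhoA at the cleavage site, had 3418 and 4685 in hypoxia, against 4264 and 3934 in normoxia. The normoxia arrays lay between the hypoxia arrays, and the difference was -0.03 ± 0.19 with a 95% interval from -0.47 to 0.40 (limma adjusted p = 0.906). ANLN (chr7:36389862-36453791), the anillin scaffold of the ring, had 4553 and 4535 in hypoxia, against 4120 and 3866 in normoxia, the only gene of the list whose difference was above 0. Both hypoxia arrays lay above both normoxia arrays, but the difference of 0.19 ± 0.16 was not called, and its 95% interval ran from -0.17 to 0.54 (limma adjusted p = 0.383). The lower ends of these intervals do not reach the median of the list. The same holds for PRC1, ESPL1, CENPA and PLK1, and for PTTG1, TTK and MKI67, which were called lower. The sign of ANLN turned with scaling to the hybridization controls, to -1.26, where the median of all genes was -1.40, and that of ECT2 turned with scaling to the 75th percentile, to 0.11.

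All 5 genes of chromosome structure were called lower, with a median of -1.94. NCAPH (chr2:96335766-96377091), the subunit that closes the ring of condensin I, had 26.1 and 104 in hypoxia, against 518 and 646 in normoxia (-2.92 ± 0.57; limma adjusted p = 0.00395). Its hypoxia signals lay under the highest Bacillus probe set of their arrays and their mean under the signal floor, so the size of the difference is not fixed by these data: it was -2.08 with a pseudocount of 100, where CCNB1, ZWINT, KIF2C and NDC80 differed by more, and ran from -3.60 to -2.24 with 1 array left out. Without normoxia B the limma adjusted p was 0.0666. NCAPG, another subunit of the same complex, had 601 and 404 in hypoxia, against 2279 and 2534 in normoxia (-2.23 ± 0.24; limma adjusted p = 0.000243). TOP2A, the topoisomerase that untangles sister DNA and whose promoter is printed above, had 557 and 775 in hypoxia, against 2513 and 2672 in normoxia (-1.94 ± 0.22; limma adjusted p = 0.000297). No array of either gene overlapped with the other group. SMC4, an ATPase core subunit of condensin, differed by -1.14, and MKI67, the antigen Ki-67 that coats mitotic chromosomes, by -0.76 (limma adjusted p = 0.0261). MKI67 had 642 and 600 in hypoxia, against 1111 and 1023 in normoxia. Its call was lost without normoxia A (limma adjusted p = 0.289), without normoxia B (limma adjusted p = 0.2), with quantile normalization (limma adjusted p = 0.0789) and with scaling to the 75th percentile (limma adjusted p = 0.057).

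Further probe sets of the same genes gave a second reading that the choice of the brightest probe set had not used. Of 44 further probe sets of the list, 31 passed the signal floor, in 22 genes. Among these 31, 18 were called lower in a fit over 23176 probe sets, none was called higher by limma or was higher at an unadjusted p under 0.05, and 13 were not called, where 18.3% of all probe sets tested were called lower. Their median difference was -1.40. The floor is on the mean of all 4 arrays, so some passed it only through normoxia. Such were a probe set of MAD2L1 (hypoxia mean 75.8, normoxia mean 432) and another of MKI67 (73.4 and 448), both called lower. Another, of CDC25C (35.5 and 176), was not called. The second CCNB1 probe set differed by -3.41, with 233 and 186 in hypoxia, against 2622 and 2287 in normoxia. One further probe set of MAD2L1 differed by -2.14, and the other, at -2.22, had hypoxia signals under the highest Bacillus probe set of their arrays. The second of AURKA differed by -3.04, with 65.1 and 407 in hypoxia, against 1490 and 1684 in normoxia, and so rested much on hypoxia A, which lay under that level. The 4 probe sets of MKI67 spread widely, with differences of -0.76 for the brightest, and -0.86, -2.02 and -2.66 for the others, of which that of -2.02 was not called (limma adjusted p = 0.0571). The 2 widest of these differences came from probe sets with hypoxia signals under the Bacillus level on both arrays.

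Probe sets of a gene also disagreed in the other direction. For SMC4 the brightest gave -1.14, while the other probe sets gave -0.25 and 0.75 and were not called. For CENPF the second gave -0.28, for CCNB2 the second gave 0.41 with signals of 149 and 150 in hypoxia, against 86.7 and 130 in normoxia, and for ASPM the others gave -0.82 and 0.45. The hypoxia signals of these probe sets of CENPF and CCNB2, and of that of ASPM at -0.82, lay under the Bacillus level on both arrays. That of ASPM at 0.45 lay under it on hypoxia B. ECT2 and ANLN were near 0 on their second probe sets too, at 0.17 and 0.05. Where the probe sets of a gene were averaged, dim ones included, the calls of ASPM, AURKB, BUB1, CCNB2, CDC25C, CENPF, PTTG1, SMC4 and TOP2A were lost and that of CENPE was gained, which left 30 genes called lower.

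**Figure D4:**
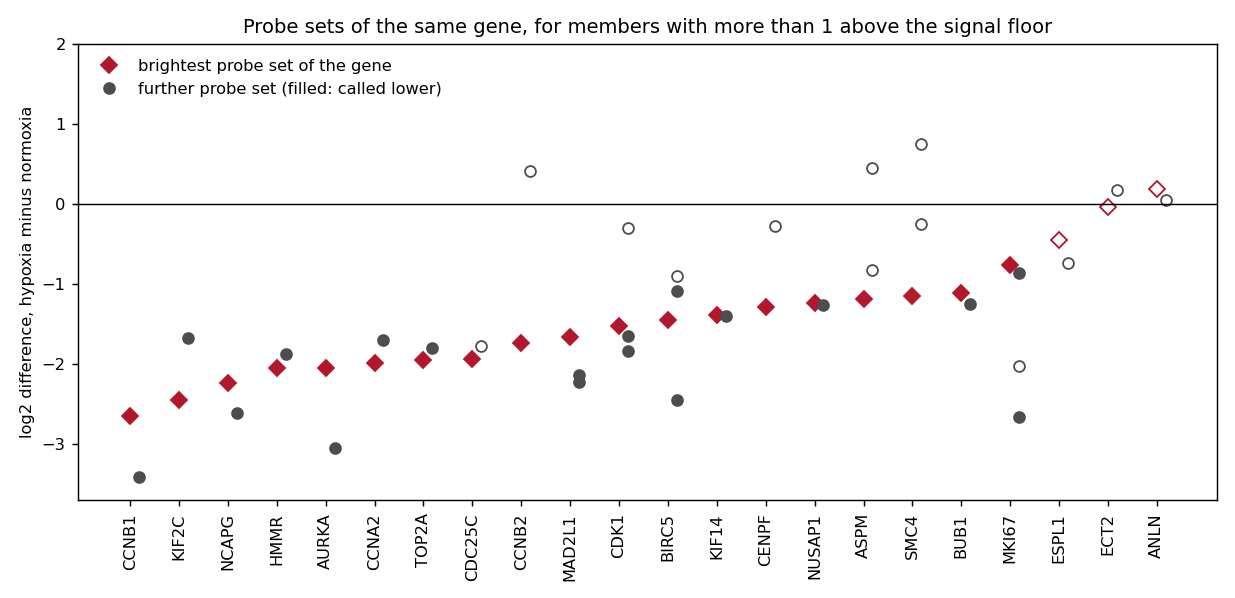
Log2 difference, hypoxia minus normoxia (vertical), of the brightest probe set (diamonds) and of 31 further probe sets above the signal floor (circles) for the 22 genes that have them, filled where called lower. Most circles lie below 0, down to -3.41 for CCNB1, and 5 lie above it, in CCNB2, ASPM, SMC4, ECT2 and ANLN.

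Other genes of mitosis, listed by complex and not among the 48, were lower less uniformly. Of 107 such genes tested, 51 were called lower, 3 higher and 53 were not called, where 22.8% of all genes tested were called lower and 15.3% higher. Their median difference was -0.71. Without normoxia A 19 of them were called lower and without normoxia B 18, against 10.8% and 11.3% of all genes tested in those fits, and 14 kept their call whichever array was left out. This list too was drawn up with earlier results of these data known.

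In the inner kinetochore, the constitutive centromere proteins, 6 of 13 genes were lower, with a median of -0.55. CENPU had 413 and 342 in hypoxia, against 2785 and 2511 in normoxia (-2.74 ± 0.22; limma adjusted p = 6.99e-05). CENPK had 259 and 36.7 in hypoxia, against 1333 and 804 in normoxia, a call with a limma adjusted p of 0.00607. CENPM had 7.59 and 32.5 in hypoxia, against 291 and 343 in normoxia, and its call was lost without normoxia A (limma adjusted p = 0.262) and without normoxia B (limma adjusted p = 0.26). The hypoxia signals of both genes lay under the highest Bacillus probe set of their arrays, so no size is given for their differences. The signal floor is on the mean of all 4 arrays, so CENPM passed it only through normoxia. Other genes dim in hypoxia may have done so too. In the outer kinetochore and checkpoint 9 of 14 were lower, with a median of -0.94. TRIP13, the ATPase that remodels MAD2, had 357 and 244 in hypoxia, against 2552 and 2302 in normoxia (-2.94 ± 0.25; limma adjusted p = 9.65e-05), and SKA2 differed by -1.29. SPDL1, a dynein adaptor, was also called lower. Its hypoxia signals lay under the Bacillus level, so no size is given for its difference. Among spindle, midzone and chromosomal passenger genes 11 of 16 were lower, with a median of -0.99, led by TACC3 (-1.96), KIFC1 (-1.56) and SPAG5 (-1.42). Condensin subunits outside the list were lower in 3 of 5, NCAPD2 by -1.38, NCAPG2 by -1.14 and SMC2 by -0.77, of which 1 was left without normoxia A and 1 without normoxia B. In the same way the count fell to 2 and 2 in the inner kinetochore, 3 and 4 in the outer kinetochore and checkpoint, and 4 and 2 among spindle, midzone and passenger genes.

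The APC/C and its regulators were lower in 7 of 16 genes and higher in 1, with a median of -0.62. The subunits ANAPC4 and CDC16 differed by -2.20 and -1.66, and the inhibitor FBXO5 by -1.56. FZR1, the activator that replaces CDC20 at mitotic exit, was higher, with 711 and 598 in hypoxia, against 243 and 239 in normoxia (1.35 ± 0.31; limma adjusted p = 0.00868). Cohesin and its partners were lower in 4 of 11, among them CDCA5, the sororin that holds sisters together, at -2.01, SMC3 at -0.92 and the loader MAU2 at -0.84, and the regulator PDS5A was higher at 0.48 (limma adjusted p = 0.0489). Of 11 centriole and centrosome genes, 3 were lower, PLK4, the kinase of centriole duplication, at -1.36, NEDD1 at -0.91 and TUBG1 at -0.75, and CEP152 was higher at 1.24. Of 10 genes of entry control, 3 were lower, the phosphatase CDC25A, the PLK1 activator BORA at -1.33 and the cyclin CCNF at -1.27. The counts in the centriole and entry groups are near the 22.8% of all genes tested. With normoxia A or normoxia B left out, 5 of the APC/C genes, 1 of the cohesin genes and 1 of the centriole genes were called lower in each fit, and none of the entry genes. The hypoxia signals of CDC25A lay under the highest Bacillus probe set of their arrays, so no size is given for its difference. The calls of the 3 higher genes were lost without normoxia B, with a limma adjusted p of 0.062 for FZR1, 0.159 for CEP152 and 0.357 for PDS5A, and those of FZR1 (limma adjusted p = 0.0574) and PDS5A (limma adjusted p = 0.11) also without normoxia A.

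FOXM1, the transcription factor known for G2 and M phase genes, had 65.6 and 133 in hypoxia, against 714 and 574 in normoxia (-2.49 ± 0.44; limma adjusted p = 0.00253). Its arrays did not overlap, both hypoxia signals lay under the highest Bacillus probe set of their arrays, and without normoxia A the limma adjusted p was 0.0535. MYBL2, which works with the MuvB complex and was named after its values were seen, had 58.6 and 152 in hypoxia, against 378 and 281 in normoxia, and was not called (-1.54 ± 0.56; limma adjusted p = 0.0573). Of 11 genes of FOXM1, MuvB and MYBL2, 5 were lower, among them the MuvB subunit LIN37 at -1.25 and the E2F partner TFDP1 at -1.03, with a median of -0.77, and 2 were called without normoxia A and 2 without normoxia B. Promoter windows of the other mitosis genes held a CHR match in 37 of 95 (38.9%), a CCAAT match in 50.5% and both in 24.2%. They held an E2F-type match in 35.8%, near the 39.5% of the 43 windows of the list.

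**Figure D5:**
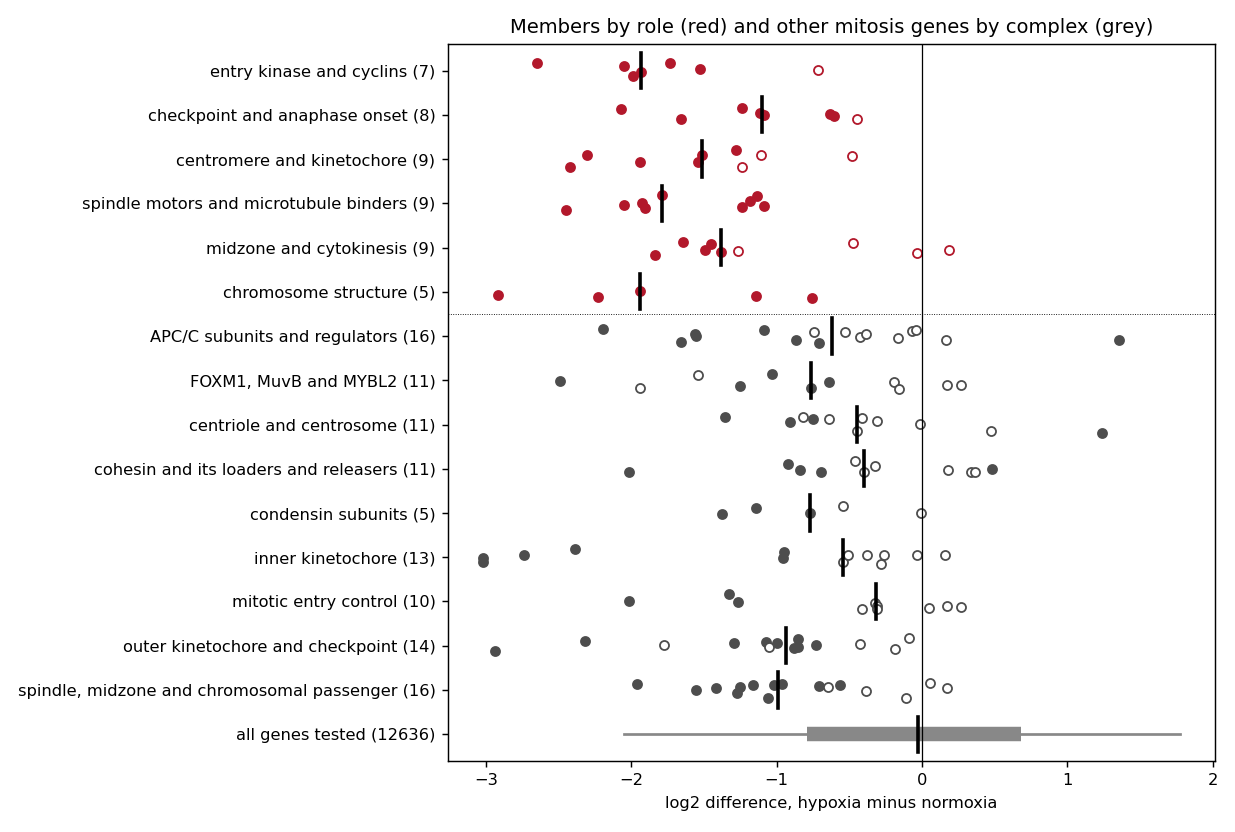
Log2 difference, hypoxia minus normoxia (horizontal), of each tested gene, for the 48 genes by role in red and other mitosis genes by complex in grey, with the number tested in parentheses, filled where called, and list medians as black bars. The bottom line gives the median, quartiles and the range from the 5th to the 95th percentile of all 12636 genes, and the medians run from -1.94 to -1.10 in the red lists and from -0.99 to -0.32 in the grey ones.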

How the data were processed

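RNA of HCT116 cells was measured on 4 arrays, 2 hypoxia and 2 normoxia, grouped by the labels. The deposited values are intensities on a linear scale, 1 per probe set, made by the authors. The submitters' processing notes name MAS5, with no version given in the sources used here. Each array had a trimmed mean of 499.9, so scaling to a common level hides a shift shared by most genes.

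Of 54675 probe sets, 41091 were listed for 1 gene. Of the 47 tested genes, 19 were read from a probe set with the suffix _s_at or _x_at, which can cross-hybridize. The suffix was _x_at in 3 of them, PTTG1, SKA1 and CENPA. Symbols were updated through RefSeq. The brightest probe set per gene was tested if its mean was at least 97.4, the median probe set mean. Groups were compared on log2(signal + 23.7), the added value being the 25th percentile of all signals, in R 4.3.3 with limma 3.58.1 (linear model, eBayes with trend, two-sided, Benjamini-Hochberg over 12636 genes), tested on simulated data. Tables and figures used Python 3.11.15, pandas 2.3.3 and matplotlib 3.10.9. Named are all 48 genes, per-array values of the 3 largest called changes per role and of genes not called, and up to 3 called genes per other list plus those opposite to it; values of further genes were added after being seen. The genes and lists were chosen with earlier results of these data known. Alternatives were other scalings, pseudocounts, filters, probe set rules and variance models, a replicate block, and leaving out each array. No 2 arrays shared more than 1 identical value. Of the other mitosis genes, 4 had no probe set listed for them alone and were not analysed here.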

Additional observations from a re-analysis of the deposited data

How the results depend on the processing

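Over 15 alternative settings, the 47 tested genes gave 699 values, of which 635 kept direction and side of the threshold, 41 lost the call, 18 gained it and 5 changed sign, and 20 genes kept both in every setting run. No setting called any of them higher. Genes called lower over the list ranged from 25 to 42 when 1 array was left out, with 25 without normoxia B, and the median difference from -1.58 to -1.40. It was -1.33 with probe sets of a gene averaged, -1.32 with a pseudocount of 100, -1.40 with quantile normalization, -1.35 with scaling to the 75th percentile and -2.88 with scaling to the hybridization controls. The median of all genes was 0.11 in the 75th percentile scaling and -1.40 in the control scaling, and the median of the list minus it was -1.47 and -1.48. Called lower were then 35 and 45 of the 47 genes, against 19.0% and 43.6% of all genes. The share of calls that were higher was 49.7% and 0.934% in these scalings, against 40.1%.

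All genes called were 7510 over all probe sets and 3141 without an intensity trend, and 2575 to 6257 with 1 array left out. Genes called lower were 1811 without a trend, 5514 with the hybridization controls and 1371 to 3747 with 1 array left out. ANLN changed sign to -1.26 with the hybridization controls. ECT2 changed sign to 0.27 with the mean of probe sets and 0.11 with the 75th percentile, and ran from -0.26 to 0.19 with 1 array left out. The labels do not say that letters A and B pair the arrays, and deviations of A correlated at 0.0875 between the groups. With the letter as a replicate block, 40 genes of the list were lower, against 25.8% of all genes, KIF23 (limma adjusted p = 7.21e-05) and PRC1 (limma adjusted p = 0.0385) were gained, and 5487 genes were called in all. The cause of these changes was not tested. If no Bacillus RNA was added, which is not stated, the level of its probe sets limits how low a hypoxia signal can be read.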
